A study of Arabidopsis thaliana with 6 samples.

Results

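The Aux/IAA genes IAA7 (AXR2, AT3G23050), IAA14 (SLR, AT4G14550), IAA16 (AT3G04730), IAA17 (AXR3, AT1G04250), IAA8 (AT2G22670), IAA9 (AT5G65670) and IAA27 (AT4G29080) were followed in roots treated with auxin. They were chosen by locus identifier, and all 7 were found among the 20423 genes of the expression table. Wild-type Col-0 seedlings, 3 days after germination, were kept for 6 h in liquid medium that held either the auxin indole-3-acetic acid (IAA) at 1 µM or no added hormone. The roots of each group were taken as 3 samples of pooled plants, and total RNA freed of ribosomal RNA was sequenced. The values are the authors' means over libraries of a group, in read counts normalized for depth. A gene thus has 1 value for control roots and 1 value for treated roots.

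Aux/IAA proteins are short-lived nuclear repressors of auxin-responsive genes. They bind auxin response factors (ARFs), which sit on the promoters of these genes, and bring in corepressors of the TOPLESS family. Auxin acts as a glue between the degron of an Aux/IAA protein and a TIR1/AFB receptor, the F-box subunit of an SCF ubiquitin ligase, and the repressor is then degraded. Many Aux/IAA genes are themselves auxin-responsive, which closes a negative feedback loop. IAA7, IAA14 and IAA17 are known from dominant mutants with a stabilized repressor: axr2 and axr3 roots have disturbed gravitropism, and solitary-root (slr) plants make no lateral roots.

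The degron lies in domain II of the protein, around the core glycine, tryptophan, proline, proline, and it is the shared feature on which the auxin response of these repressors rests. A search of the coding sequences for in-frame codons of this core found it once in each of the 7 genes. The 30 bases around it, on the coding strand from 5′ to 3′, were read from the RefSeq genome of TAIR10.1, with the 4 codons of the core in capitals:

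IAA7 (chr3:8195568-8195597, plus strand): caagtggtgGGATGGCCACCTgtgaggaac
IAA14 (chr4:8349478-8349507, minus strand): caagtggtgGGTTGGCCACCGgtgaggaac
IAA16 (chr3:1289730-1289759, minus strand): caagttgtgGGATGGCCACCGgtacgatct
IAA17 (chr1:1136938-1136967, plus strand): caagttgtgGGATGGCCACCGgtgagatca
IAA8 (chr2:9637725-9637754, plus strand): caggttgttGGTTGGCCTCCAatcagatca
IAA9 (chr5:26255104-26255133, plus strand): caaattgtcGGTTGGCCTCCAgtgagatcc
IAA27 (chr4:14324654-14324683, minus strand): caagtggtgGGATGGCCACCAataagatca

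The core was spelled with 5 different sets of codons. IAA16 and IAA17 had the same 12 bases there, and so did IAA8 and IAA9. IAA7 and IAA14 differed at 2 of the 30 bases shown, the fewest among all pairs, and their whole coding sequences were also the most alike, with 82.5% identity over 690 aligned bases. Identity between the other pairs ran from 65.7% to 75.5%. The genes fell into a shorter and a longer kind: IAA7, IAA14, IAA16 and IAA17 had coding lengths of 690 to 732 bases, whereas IAA8, IAA9 and IAA27 had 918 to 1017 bases and placed the core later, at codon 146 to 186 against 73 to 85. Reads of 60 bases, the length sequenced, could be told apart between these paralogs, since none of the 1022 to 1763 exonic windows of that length in any of the 7 genes has an exact match elsewhere in the reference genome.

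IAA9 was by far the most abundant of these transcripts in both groups, and its level was more than 3 times higher after IAA. The authors' mean was 319.7 in control roots and 1060 in treated roots, a ratio of 3.32. With a transcript of 1950 bases, this is 164 and 544 normalized reads per kb. IAA9 took 55.5% of the summed control means of the 7 genes and 65.8% of the summed IAA means. Of the net gain of 1035 normalized reads over the 7 genes, 71.5% came from IAA9. Its ortholog in tomato is known for its part in leaf shape and fruit set.

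No spread between libraries can be given, because the deposited values hold 0 values per library. What the means do show is how many reads stand behind them. Means under 4 lay on sums of only 2 steps in each group, 0.589 and 0.6345 in control and 0.3665 and 0.4255 after IAA, and 100% of 4446 control and 4638 IAA means fitted within 0.0055, against 28.03% and 25.4% with a single step. Each step is what 1 read of a library is worth. Only 2 steps are what means over 2 libraries would give, whereas 3 libraries would give 3 steps unless 2 of them shared a step. The sample labels name 3 libraries per group, so the means may rest on fewer. Which libraries entered them is not given in the sources used here. At the midpoint of both steps, IAA9 rests on about 523 reads in control and 2677 after IAA. The 95% counting interval of its ratio, from an exact binomial interval of the IAA share of these reads, is 3.02 to 3.65. All intervals here cover counting error only and none of the spread between root samples, so no test of the treatment was possible and no p-value is given.

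IAA8, the closest relative of IAA9 in this set by length and codons of the core, had the highest ratio. Its mean was 61.0 in control and 241 after IAA, which is 3.95 times the control level (counting interval 3.18 to 4.91). The ratio of IAA8 over that of IAA9 was 1.19, with a counting interval of 0.945 to 1.5004 that includes 1. The counts thus do not separate the ratios of IAA8 and IAA9, whereas IAA27, the other gene of the longer kind, stood near its control level. The mean of IAA27 was 14.6 in control and 17.3 after IAA, a ratio of 1.18 with a counting interval of 0.706 to 2.04, since it rests on only about 24 and 44 reads. RefSeq lists IAA27 as PAP2, phytochrome-associated protein 2. The annotated gene shares 41 bases with AT4G29070 on the other strand, whose means were 4.85 and 3.96, and IAA9 shares 44 bases with the noncoding AT5G09425. Reads from such a stretch cannot be assigned to either gene unless counting used strand, which is not given in the sources used here.

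**Figure D1:**
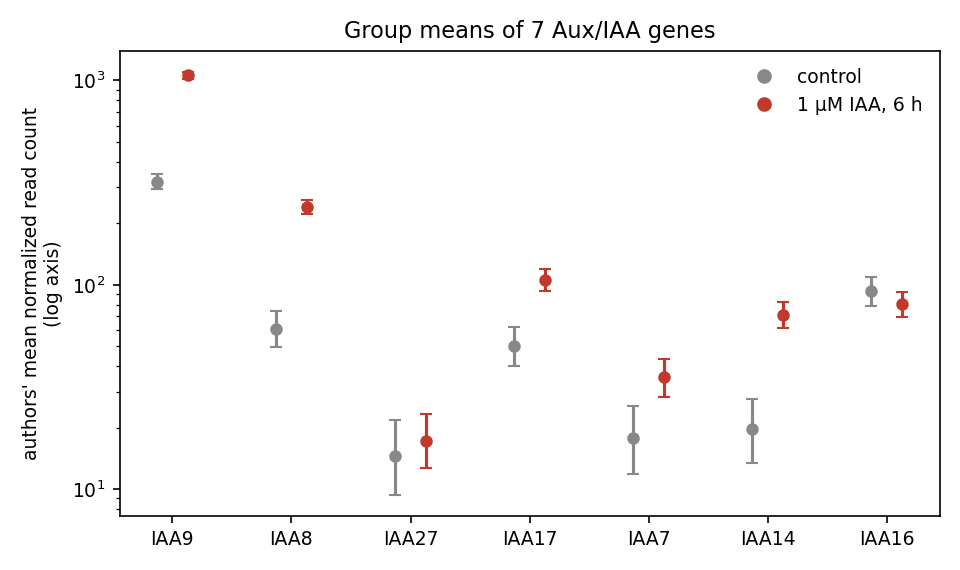
Authors' mean normalized read count of the 7 Aux/IAA genes (log axis) in control roots (grey) and after 6 h of 1 µM IAA (red). Bars are 95% counting intervals and hold no spread between libraries. IAA9 lies highest in both groups, at 319.7 and 1060, while the intervals of both groups overlap for IAA16 and IAA27.

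Among the genes of the shorter kind, IAA14 had the highest ratio and IAA16 the lowest. IAA14, the repressor that blocks lateral root initiation when stabilized, had a mean of 19.7 in control and 71.2 after IAA, a ratio of 3.61 (2.49 to 5.48). IAA17, whose axr3 mutants respond to auxin in an altered way, had means of 49.99 and 105, a ratio of 2.11 (1.63 to 2.72). For IAA7, the gene of the axr2 mutant, the means were 17.8 and 35.2 and the ratio 1.98 (1.29 to 3.13). By counting error alone, the ratio of IAA14 was above those of IAA17 (1.71-fold, 1.09 to 2.68) and IAA7 (1.83-fold, 1.04 to 3.21), with lower ends near 1.

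IAA16 was the only gene of the set whose mean was lower after IAA, though the counts do not tell its ratio from that of IAA27. IAA16 had the second highest control level per transcript length of the 7 genes, at 45.8 normalized reads per kb. Its mean was 92.7 in control and 80.3 after IAA. The ratio of 0.866 has a counting interval of 0.697 to 1.07, which includes 1 and leaves out a ratio of 2. In treated roots its level per kb was 39.7. A dominant iaa16 mutant is known to respond weakly to auxin, so the protein is an active repressor.

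A gene was counted as higher when its IAA mean was at least 2 times its control mean and as lower when the control mean was at least 2 times the IAA mean, with a mean over both groups of at least 10. All 7 genes passed this minimum. By this rule 4 of the 7 were higher (IAA8, IAA14, IAA9 and IAA17), against 13.0% of 11139 genes in all, and 0 were lower, against 11.1%. IAA17 stood just inside the limit at 2.11 and IAA7 just outside at 1.98. With both groups scaled to equal nuclear sums, IAA7 reached 2.08, and the count was then 5. The median log2 ratio of the 7 genes was 1.08, against −0.01 over all genes that passed. Of all genes that passed, 3.36% had a larger ratio than IAA8, 4.02% a larger one than IAA14 and 4.89% a larger one than IAA9. IAA17 and IAA7 followed at 11.7% and 13.4%, IAA27 at 37.0% and IAA16 at 60.9%.

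**Figure D2:**
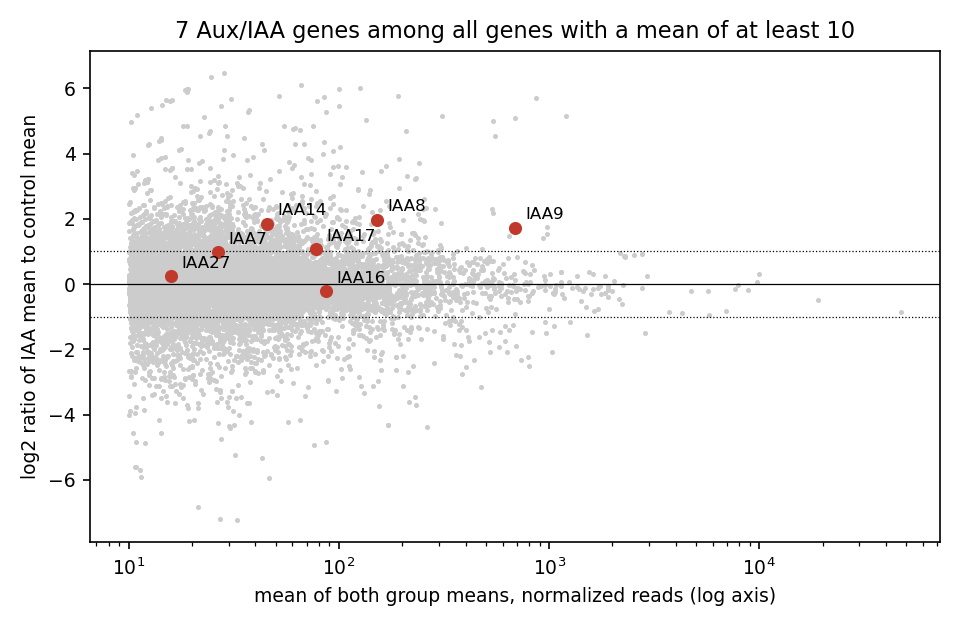
Log2 ratio of the IAA mean to the control mean against the mean of both (log axis), for the genes that passed the minimum mean of 10 and had neither group at 0 (grey, 7 genes left out). The 7 Aux/IAA genes are red and dotted lines mark 2-fold. IAA8, IAA14, IAA9 and IAA17 lie above the upper line, and IAA16 lies below 0 at −0.21.

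The order of the ratios was IAA8, IAA14, IAA9, IAA17, IAA7, IAA27 and IAA16. Of the 21 pairs, 15 had a ratio of ratios whose counting interval left out 1. Neighbours in the order could not be told apart by read counts, with the exception of IAA9 and IAA17, which differed 1.57-fold (1.21 to 2.05). By counting error alone, IAA8, IAA14 and IAA9, at 3.32 to 3.95, thus stood above IAA17 and IAA7, at 2.11 and 1.98. The lower ends were near 1 for IAA14 over IAA17 (1.09), IAA14 over IAA7 (1.04) and IAA9 over IAA7 (1.09), so these are not settled groups. IAA27 could be told from IAA17, by 1.78-fold (1.02 to 3.11), but not from IAA7, where the difference was 1.67-fold (0.872 to 3.20), nor from IAA16. For the pair most alike in coding sequence, the ratio of IAA14 was 1.83 times that of IAA7 (1.04 to 3.21). The lower end is near 1, the control means rest on 32 and 29 reads, and the intervals of both ratios overlap. With the spread between root samples unknown, a difference between them is not settled.

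Per transcript length, the order of the levels was different from that of the ratios. In control roots IAA9 (164 normalized reads per kb) was followed by IAA16 (45.8), IAA17 (38.0) and IAA8 (36.0), with IAA7 (11.5), IAA14 (11.4) and IAA27 (10.2) at the end. After IAA the order was IAA9 (544), IAA8 (142), IAA17 (80.1), IAA14 (41.2), IAA16 (39.7), IAA7 (22.8) and IAA27 (12.03). IAA16 thus stood next to IAA9 in control and below IAA8, IAA17 and IAA14 after IAA, and IAA27 was last in both groups. With coding length in place of transcript length, IAA7 and IAA14 change places in control, and IAA14 and IAA16 after IAA.

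A gene of this set has an Aux/IAA neighbour in 3 cases, and each time the neighbour, from the clade of IAA1 to IAA6 and IAA19, had the higher ratio. IAA7 and IAA2 lie 12.5 kb apart on chromosome 3, IAA14 and IAA1 10.7 kb apart on chromosome 4, and IAA17 and IAA3 6.39 kb apart on chromosome 1. Both genes of a pair are transcribed away from each other with no protein-coding gene between them. IAA1 had means of 4.85 and 83.4, the latter 17.2 times the former, and this ratio was 4.76 times that of IAA14 (2.14 to 10.6). IAA3, also called SHY2, has a known part in meristem size. It stood at 22.0 and 236, and its ratio of 10.7 was 5.09 times that of IAA17 (3.35 to 7.73). Per transcript length, IAA14 and IAA17 were above their partners in control, at 11.4 against 5.13 and 38.0 against 16.3 normalized reads per kb. After IAA they were below them, at 41.2 against 88.2 and 80.1 against 175. IAA7 was below IAA2 in both groups, at 11.5 against 55.3 in control and 22.8 against 169 after IAA. For IAA2 (75.1 and 230.2 normalized reads, a ratio of 3.07) and IAA7 the difference was 1.55-fold, and its counting interval of 0.978 to 2.46 includes 1.

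**Figure D3:**
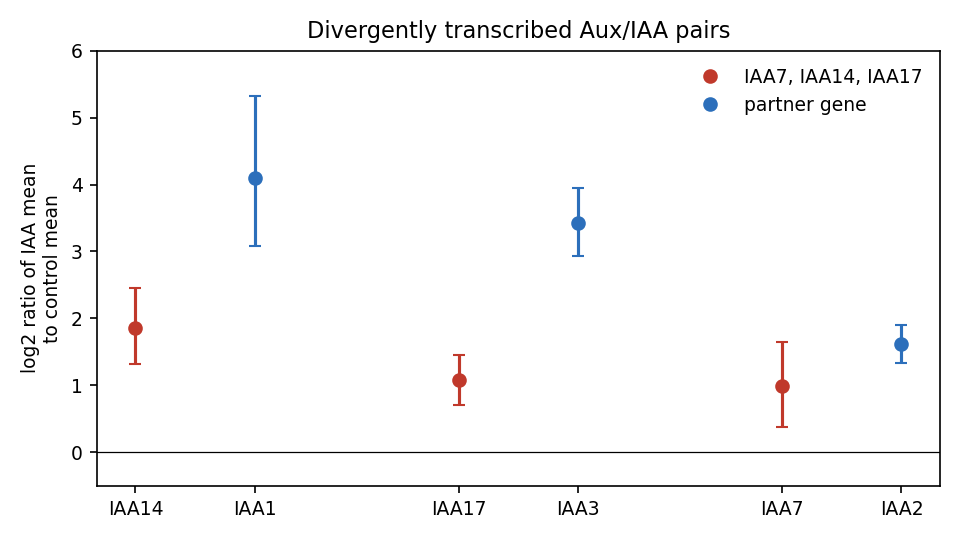
Log2 ratio of the IAA mean to the control mean for the 3 divergently transcribed pairs of Aux/IAA genes, with 95% counting intervals. The partner gene (blue) lies above the gene of the set (red) in each pair, and the intervals overlap for IAA7 and IAA2.

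Of 29 Aux/IAA family members, 27 were in the table (the expression of IAA15 and IAA32 was not analysed here), and the 7 genes of the set and 12 others passed the minimum mean. A gene with a control mean under 6.67 can pass this minimum only by being at least 2-fold higher after IAA, which holds for 0 of the 7 genes but for 5 of the 12 others, IAA1, IAA5, IAA11, IAA19 and IAA29. Counts over the others that passed are therefore partly set by the minimum. Of the 7 others with a control mean above that limit, IAA3, IAA13, IAA18 and IAA26 had ratios above that of every gene of the set, and IAA4, IAA2 and IAA28 did not. IAA28 was lower, at 83.9 in control and 36.4 after IAA. IAA5 and IAA19 stood at 0.59 and 3.13 in control and at 48.3 and 197 after IAA, the highest ratios among the 19 genes, and the control mean of IAA5 amounts to 1 read. The 3 lowest ratios after that of IAA28 belonged to IAA16, IAA27 and IAA7. As a description, the genes nearest to IAA8 and IAA14 in log2 ratio were IAA4 for both, at distances of 0.03 and 0.09 over 2 group means and 18 candidates, and the gene nearest to IAA9 was IAA2, at 0.11. IAA7 and IAA17 were nearest to each other, at 0.09, and IAA16 and IAA27 likewise, at 0.45.

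In summed reads the 7 genes made up 63.6% of all Aux/IAA means in control and 50.1% after IAA. Their sum was 575 in control and 1610 after IAA, 2.80 times higher, and without IAA9 it was 2.15 times higher. The sum over the 20 other family members in the table was 4.87 times higher, from 329 to 1602 normalized reads. In a bulk sample, more transcript per cell and more cells that express a gene cannot be told apart.

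**Figure D4:**
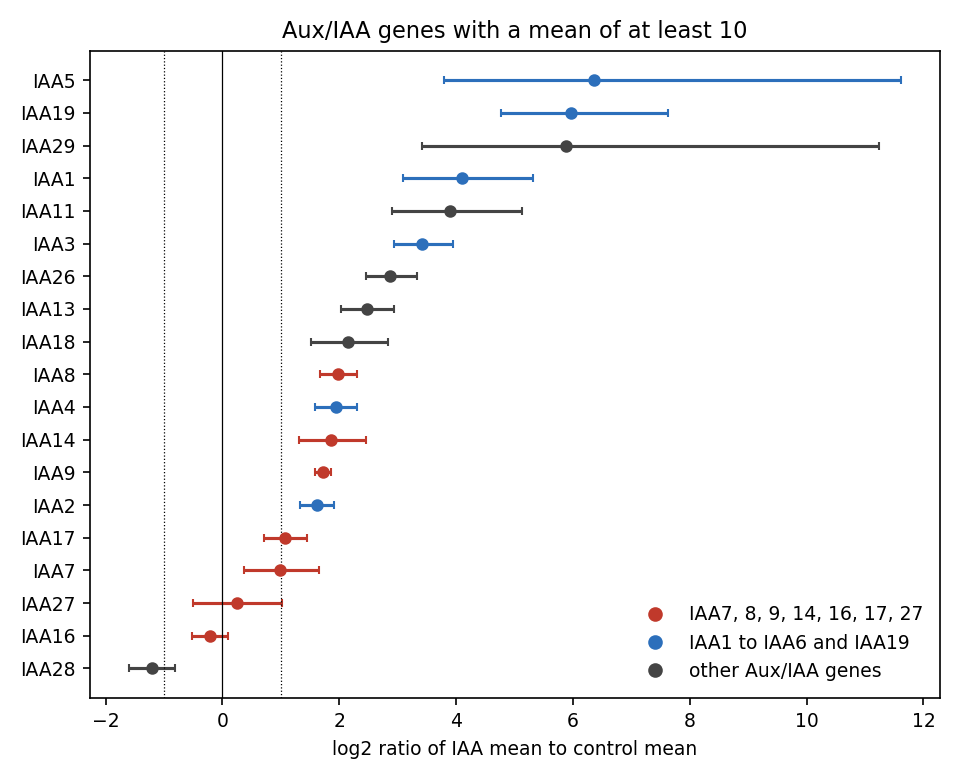
Log2 ratio of the IAA mean to the control mean for the 19 Aux/IAA genes with a mean of at least 10 over both groups, in order, with 95% counting intervals. Dotted lines mark 2-fold. The 7 genes of the set (red) lie between −0.21 and 1.98, and 9 of the 12 others lie above them, 5 of which could pass the minimum only by being higher.

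Most transcripts of the receptors, ligase subunits, corepressors and activators that act with these repressors had means within 2-fold of control. This also held for most genes: of the 11139 that passed the minimum, 8456 were within 2-fold, 13.0% were higher and 11.1% lower. The counts below therefore do not set these lists apart. Of the 6 TIR1/AFB receptor genes, 0 were higher and 0 lower, with a median log2 ratio of −0.33. TIR1 stood at 128 in control and 160 after IAA, whereas AFB1 (78.2 and 42.2) and AFB2 (76.7 and 44.0) had the lowest ratios, 0.540 and 0.574. All 4 genes of the SCF core stayed within 2-fold, among them CUL1, the cullin scaffold, at 269 and 289. Of the 5 TOPLESS corepressor genes only TPR3 was higher (12.8 and 36.8), with TPL at 185 and 211. Among 5 activator ARFs only ARF19 was higher, at 44.9 and 170 normalized reads, a ratio of 3.797. ARF7, which acts with ARF19 and is held in check by IAA14 in lateral root initiation, stood at 77.5 and 89.0.

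Genes known to act below IAA14, ARF7 and ARF19 in lateral root formation were read beside the repressor gene. Of 7 such genes 5 passed the minimum mean, but 4 of these (LBD16, LBD18, LBD29 and PUCHI) could pass it only by being higher, so only the values are given. LBD29 and LBD18, transcription factors of lateral root initiation and emergence, stood at 1.9 and 4.76 in control and at 130.1 and 125 after IAA. LBD16 stood at 2.49 and 22.0, PUCHI at 0.59 and 37.4, and the auxin influx carrier LAX3 at 38.6 and 381. LBD33 (1.18 and 6.22) and GATA23 (0.59 and 7.45) were under the minimum. The control means of LBD29 and PUCHI amount to 3 reads and 1 read. These lists were drawn up with earlier results of these data known, and their counts are a description.

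**Figure D5:**
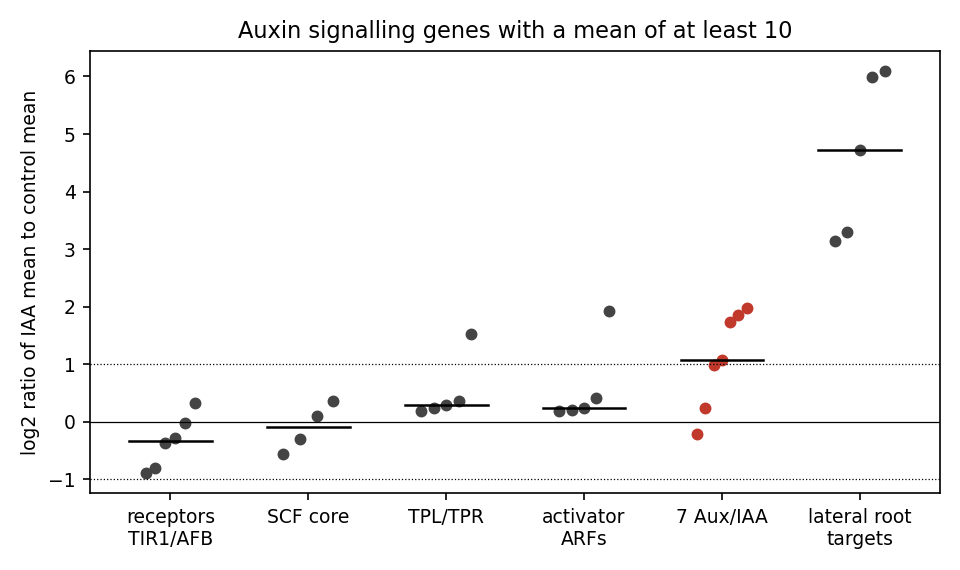
Log2 ratio of the IAA mean to the control mean for auxin signalling genes with a mean of at least 10, by role. Lines are medians and dotted lines mark 2-fold. The 7 Aux/IAA genes (red) have a median of 1.08 and the receptors one of −0.33, while 4 of the 5 lateral root genes could pass the minimum only by being higher.

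Auxin response factors bind DNA at TGTC, above all at TGTCTC and TGTCGG. The 250 bases before the annotated start are shown for 2 pairs picked by their ratios. These are IAA8 and IAA9, at 3.95 and 3.32, and IAA16 and IAA27, the lowest of the set at 0.866 and 1.18. The counting interval of IAA27, 0.706 to 2.04, does not leave out a ratio of 2. Sequences come from the RefSeq genome of TAIR10.1 and run from 5′ to 3′ in the direction of transcription, with TGTC, or GACA where it lies on the other strand, in capitals:

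IAA8 (chr2:9636096-9636345, plus strand): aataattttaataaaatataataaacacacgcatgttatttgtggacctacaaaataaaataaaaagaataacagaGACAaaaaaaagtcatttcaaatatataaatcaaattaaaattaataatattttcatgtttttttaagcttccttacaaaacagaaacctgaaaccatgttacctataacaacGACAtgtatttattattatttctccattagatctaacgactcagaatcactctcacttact
IAA9 (chr5:26253158-26253407, plus strand): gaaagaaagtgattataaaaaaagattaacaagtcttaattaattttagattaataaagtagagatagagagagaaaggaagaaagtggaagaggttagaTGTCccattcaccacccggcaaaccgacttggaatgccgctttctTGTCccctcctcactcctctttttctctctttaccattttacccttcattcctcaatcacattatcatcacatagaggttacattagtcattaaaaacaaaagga
IAA16 (chr3:1290892-1291141, minus strand): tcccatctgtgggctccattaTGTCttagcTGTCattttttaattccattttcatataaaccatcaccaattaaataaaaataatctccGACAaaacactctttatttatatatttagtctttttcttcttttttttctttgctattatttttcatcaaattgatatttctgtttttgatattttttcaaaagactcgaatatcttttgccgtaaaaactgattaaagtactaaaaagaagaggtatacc
IAA27 (chr4:14325362-14325611, minus strand): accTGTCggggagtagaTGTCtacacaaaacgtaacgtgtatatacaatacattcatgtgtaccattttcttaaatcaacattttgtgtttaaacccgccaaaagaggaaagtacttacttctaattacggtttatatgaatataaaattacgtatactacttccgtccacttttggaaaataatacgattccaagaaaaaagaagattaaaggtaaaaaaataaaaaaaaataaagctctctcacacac

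Copies of TGTC did not separate these pairs: on both strands IAA8 and IAA9 had 2 each, IAA16 had 3 and IAA27 had 2. TGTCTC, which contains TGTC, lay in the window of IAA8, as GAGACA 176 bases before the start. In the window from 250 bases before to 50 after the start it was found in 1 of the 7 genes, against 14.2% of 27443 promoters of the same length and 11 of the 22 other Aux/IAA genes. TGTCGG lay before IAA16 and IAA27, 163 and 247 bases from the start. It was in 5.12% of all promoters and in 4 of the 22 other Aux/IAA genes. These were IAA1, IAA5, IAA12 and IAA13, with ratios of 17.2, 81.9, 1.51 and 5.54. IAA1 and IAA5, at 8 and 1 control reads, could pass the minimum mean only by being higher, and IAA12 was under it. The counting interval of the ratio of IAA13 was 4.08 to 7.64. Whether TGTCGG goes with the ratio was not tested. TGTC itself was in 6 of the 7 windows, IAA17 being without it, and in 81.5% of all promoters. A match is a description of the letters, not a bound site.

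Markers of the organ and of its cell types were read from the same means. The 12 root cell type genes looked at were all in the table, 5 passed the minimum mean and 2 of these were lower, with control means from 0 to 68.8 and IAA means from 0.37 to 66.3. SHR of the stele (24.0 and 16.9), SCR of the endodermis (31.0 and 37.6) and PIN2 (68.8 and 66.3) were within 2-fold. The root hair gene COBL9, which could pass the minimum only by being lower, was at 20.9 in control and 0.43 after IAA, and the Casparian strip gene CASP1 at 59.8 and 12.3. The root cap gene SMB (2.45 and 14.8, a ratio of 6.02 with a counting interval of 2.15 to 23.1) and the stem cell niche gene WOX5 (3.67 and 15.3, a ratio of 4.17, 1.77 to 12.2) had higher means after IAA and were under the minimum mean. Also under it, WER had a lower mean after IAA (9.11 and 2.01, a ratio of 0.221, 0.0614 to 0.625). APL (7.93 and 3.65), GL2 (8.52 and 8.18) and PLT1 (2.99 and 4.15) were under it too, with counting intervals of the ratio that include 1. For VND7, a xylem vessel regulator, the control mean was listed at 0. Of the photosynthesis genes, LHCB1.1 and LHCB1.3 passed the minimum and were lower, as they had to be at IAA means under 6.67. They are near-identical copies, and reads that match both may be lost, since only uniquely mapped reads were counted. With RBCS1A and RBCS3B they summed to 79.5 in control and 9.62 after IAA, with single means from 2.45 to 32.4 and from 1.28 to 3.77. STM and WUS, markers of the shoot meristem, were looked up and were not in the table. The part of these differences in the values of the Aux/IAA genes was not tested.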

How the data were processed

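Root RNA of control and IAA-treated seedlings was sequenced on the SOLiD platform, with 3 libraries per group in the labels. The means show only 2 steps per group, which 2 libraries would give, or 3 libraries of which 2 shared a step. The paper's methods state mapping to TAIR10 with SHRiMP, counting of uniquely mapped reads with htseq-count and comparison with DESeq. The signal values used here come from the table the authors deposited: for each gene, the average over a group of read counts scaled by size factors. The table also holds the authors' fold changes, log2 fold changes, p-values and adjusted p-values, which were not used. Whether counting used strand is not given in the sources used here.

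From the means, ratios of IAA to control and their log2 were computed with no pseudocount. Numbers of reads were taken as the mean divided by the midpoint of both steps of its group, which gives about 1502697 reads in control and 2206196 after IAA. Intervals at 95% are exact binomial for a ratio and Poisson for a mean. For a ratio of ratios they were computed on the log scale from the 4 read numbers. Gene models, positions and sequences came from RefSeq TAIR10.1, whose nuclear chromosomes keep TAIR10 coordinates, and 20192 identifiers were paired by locus tag, all 7 loci among them. RefSeq transcript lengths may differ from the annotation used for counting. Named genes are the 7 loci and fixed lists of Aux/IAA, receptor, SCF, TOPLESS, ARF and lateral root genes, with markers of cell types. Members and lists were chosen with earlier results of these data known. The ratio intervals were tried on counts drawn from a Poisson model with 1 fixed step per group. That trial tested neither the search for the steps nor any spread between samples. Sequences were handled with Biopython 1.88, intervals with scipy 1.17.1, tables with pandas 2.3.3 and numpy 2.4.6 and plots with matplotlib 3.10.9, under Python 3.11.15.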

Additional observations from a re-analysis of the deposited data

How the results depend on the processing

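No paired analysis was possible because the table holds 1 mean per group, and for the same reason no library could be left out and no other count test or normalization of libraries could be run. The ratios of the 7 genes stayed within their counting intervals in 21 of 21 alternatives (1 added to each mean, the median nuclear ratio set to 1, equal nuclear sums). The scalings multiply every ratio by 1.01 or 1.05, less than the reach of any of these intervals, and adding 1 changes means of at least 14.6 little. The outcome was thus set by the small size of these changes and is no test of the ratios. The count of higher genes was 4 with no minimum mean and with the median ratio set to 1, 5 at 1.5-fold and with equal nuclear sums, 3 at 3-fold, and 3 of 4 genes with a minimum mean of 50. The count of lower genes was 0 in each of these. Setting the median ratio to 1 shifts all log2 ratios by 0.01 and equal nuclear sums by 0.07. Over all genes, 1452 were higher and 1231 lower, against 2632 and 2440 at 1.5-fold, 652 and 574 at 3-fold, 4197 and 3792 with no minimum mean, and 382 and 316 with a minimum mean of 50. Among the more divergent Aux/IAA genes, 5 were higher (2 of which could pass the minimum only so) and 1 lower, against 8 and 3 with no minimum mean, 2 higher of 3 with a minimum mean of 50, and 0 lower at 3-fold. TPR3 was not counted as higher at 3-fold or with a minimum mean of 50. Of the lateral root genes, 5 were higher (4 of which could pass the minimum only so), against 3 with a minimum mean of 50. AFB1 and AFB2 were the 2 receptor genes counted as lower at 1.5-fold. Within 1000 bases before the start, a window added after seeing the data, TGTCTC was in 39.6% of all promoters and in 2 of the 7 genes. Depth limits IAA27 most, then IAA7 and IAA14, which rest on 24 to 32 control reads.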
